A study of Mus musculus with 14 samples.

Results

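The genes Runx1, Spi1 and Cebpa were examined through every peak that 10 lists of chromatin immunoprecipitation and sequencing (ChIP-seq) placed in 3 windows of the mm9 mouse genome. The windows were chr16:92550000-92880000 for Runx1, chr2:90880000-90965000 for Spi1 with its upstream element, and chr7:35880000-35960000 for Cebpa with its +37 kb enhancer. They held 212 of the 532629 peaks in all lists, 1 in the Runx1 window, 122 in the Spi1 window and 89 in the Cebpa window. Within these windows position alone chose the peaks. The genes and lists were chosen with earlier results of these data known, and some Cebpa WDR5 peaks were named after their values were seen.

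MLL1, its partner WDR5 and dimethylated histone H3 lysine 4 (H3K4me2) were mapped in mouse bone marrow cells transduced with the MLL-AF9 fusion (MAF9 cells). These were treated with the solvent DMSO or with 20 µM MM-401, a small molecule that disrupts the contact of MLL1 with WDR5, for 2 days. WDR5 and H3K4me2 were also mapped in MAF9-transduced cells of the genotype MLL1 flox/flox, ER-cre+/-, given the solvent EtOH or 400 nM 4-hydroxytamoxifen (4OHT), which activates the Cre recombinase that deletes Mll1, again for 2 days. MLL1 was not mapped in the flox cells, so the peak lists hold no check of the deletion. Every group carried the MLL-AF9 transgene and grew with 15% serum and interleukin-3 at 10 ng/ml. The MLL1 antibody recognizes the C-terminal fragment of MLL1, a piece that the fusion protein lacks. The lists give the start and end of each peak, with no height, score or read depth, and each condition has 1 library per antibody. No replicate error and no test between conditions could be had, and an absent peak is one that was not called.

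Runx1, Spi1 (which encodes PU.1) and Cebpa (which encodes C/EBPα) are transcription factors of myeloid development. RUNX1 is needed for the emergence of blood stem cells, PU.1 is an ETS-family factor that drives macrophage and granulocyte fates, and C/EBPα is a basic leucine zipper factor required to form granulocytes. MLL1 is a histone methyltransferase that methylates H3K4, WDR5 is a core subunit shared by the complexes of MLL1 and its relatives, and H3K4me2 marks active or poised promoters and enhancers.

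Promoter sequences were taken from RefSeq to show which of the binding motifs of these factors occur at their own start sites. RefSeq promoters of build GRCm38.p6 were matched for Cebpa and Runx1, and Spi1 was not matched. Each sequence below covers the 250 bases before a start site, 5′ to 3′ on the gene's strand. Capitals mark a match to GAGGAA (an ETS core as bound by PU.1), TGTGGT (a RUNX core) or TTGCG (part of a C/EBP site), read on both strands. The Cebpa window is chr7:35119043-35119292 on the plus strand. On the minus strand, the distal Runx1 promoter is chr16:92826075-92826324 and the proximal one is chr16:92697330-92697579. These are positions on GRCm38 and are not comparable with those of the mm9 peaks.

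Cebpa: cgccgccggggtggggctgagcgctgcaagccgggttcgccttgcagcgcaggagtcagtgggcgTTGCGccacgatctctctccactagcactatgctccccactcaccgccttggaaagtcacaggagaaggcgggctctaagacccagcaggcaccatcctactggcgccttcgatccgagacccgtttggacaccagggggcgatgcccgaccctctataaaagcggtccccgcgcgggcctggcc
Runx1 distal promoter: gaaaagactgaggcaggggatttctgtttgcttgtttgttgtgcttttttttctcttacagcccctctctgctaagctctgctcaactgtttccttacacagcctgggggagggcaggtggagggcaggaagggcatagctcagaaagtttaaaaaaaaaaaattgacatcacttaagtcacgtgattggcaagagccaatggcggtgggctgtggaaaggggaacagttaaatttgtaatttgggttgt
Runx1 proximal promoter: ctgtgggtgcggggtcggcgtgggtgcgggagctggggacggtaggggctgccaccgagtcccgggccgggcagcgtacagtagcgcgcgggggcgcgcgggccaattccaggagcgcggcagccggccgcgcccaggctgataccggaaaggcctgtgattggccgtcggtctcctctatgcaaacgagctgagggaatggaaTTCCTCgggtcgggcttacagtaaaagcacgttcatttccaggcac

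The Cebpa promoter held 1 TTGCG match, a motif found in 14.5% of the 32851 promoters of this table. The proximal Runx1 promoter held 1 GAGGAA match, read as TTCCTC on the gene's strand, and 23.3% of all promoters hold that motif. The distal Runx1 promoter held none of the 3 motifs, and no promoter of the 3 held TGTGGT, which 14% of all promoters hold. These matches describe letters in short windows and are no measure of binding.

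The Runx1 window could be read in 1 list only. The DMSO MLL1 list ran to position 96977205 on chromosome 16 and had 24 peaks past the start of the window. The 9 other lists ended between 90284300 and 90354250, which is 2.2 to 2.27 Mb before the window, although they held 451 to 3157 peaks on this chromosome. The absence of H3K4me2, WDR5 and MM-401 MLL1 peaks at Runx1 is therefore not a measurement of the locus. All 9 lists also ended over 1 Mb before the last DMSO MLL1 peak on 7 of 21 chromosomes, chromosome 16 included. Chromosomes 2 and 7, which carry Spi1 and Cebpa, were not among them.

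**Figure D1:**
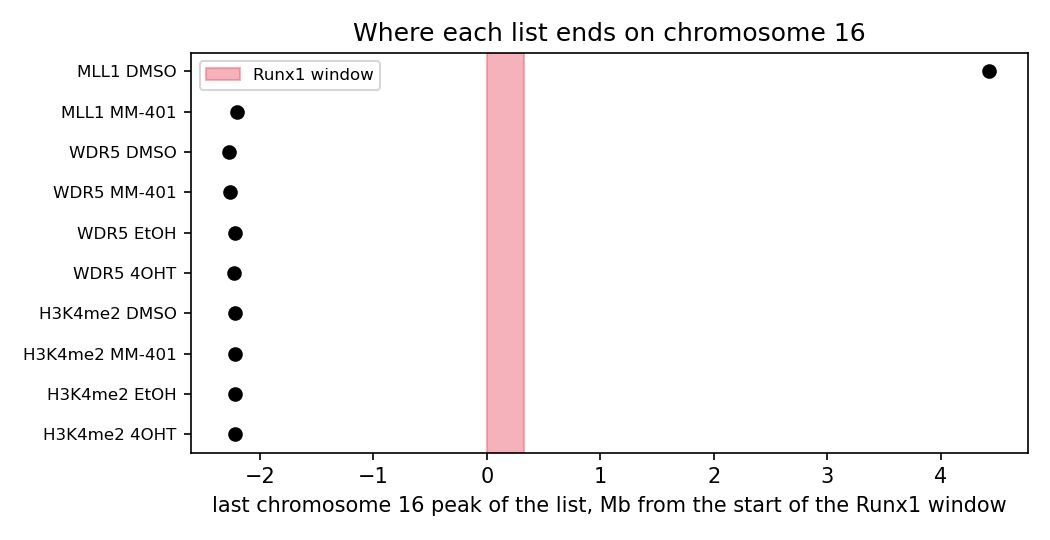
End of the last chromosome 16 peak of each of the 10 lists (points), in Mb from the start of the Runx1 window (shaded). The DMSO MLL1 list ends past the window and the 9 other lists end at least 2.2 Mb before it.

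The single Runx1 peak was a DMSO MLL1 peak at chr16:92698117-92698319, 203 bp wide, and 19.1% of that list was wider. The nearest H3K4me2 peak of any list lay 2363317 bp away. No statement about H3K4me2 or WDR5 at Runx1 follows, and the account below is about Spi1 and Cebpa.

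In the Spi1 window, H3K4me2 lay in a few long stretches called in every condition. The DMSO and MM-401 lists held 18 H3K4me2 peaks each, the EtOH list 21 and the 4OHT list 19. In that order they covered 40.2, 37, 45.5 and 40.2 kb of the window, or 47.3%, 43.5%, 53.5% and 47.3%. Over the whole lists H3K4me2 covered 3.65% to 4.05% of the spanned genome, so the window was dense in the mark in all 4 conditions. Each treated list covered less of it than its control.

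Merging the peaks of the 4 lists wherever they shared 1 bp gave 15 H3K4me2 blocks in the Spi1 window. Of these, 6 were called in all 4 conditions and measured 2625 to 12475 bp, while the other 9 were at most 925 bp long. Positions below are given in kb from the center of the DMSO WDR5 peak that the study annotated to the Spi1 promoter, with negative values toward lower coordinates. The window contains the known upstream element of Spi1, but no annotation in mm9 coordinates was at hand, and no block is assigned to it here.

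The longest Spi1 block, chr2:90919176-90931650, ran from -17.6 to -5.13 kb. The DMSO list covered 97.4% of it in 4 peaks, the MM-401 list 91.6% in 1 peak, the EtOH list 99% in 2 and the 4OHT list 95.4% in 2. The MM-401 peak here, chr2:90919676-90931100, was 11425 bp wide and ranked 135 by width among 92025 peaks. The 4OHT peak of 11700 bp ranked 163 and the EtOH peak of 12150 bp ranked 313, so in all 3 lists this was among the widest H3K4me2 peaks. In DMSO the stretch was split into peaks of 3325 and 8350 bp separated by 1 step of the 25 bp grid, with smaller peaks beside them. The block also carried 3 of the 7 DMSO WDR5 peaks of the window, 5 of the 7 MM-401 peaks, 4 of the 11 EtOH peaks and 4 of the 12 4OHT peaks.

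The block over the Spi1 promoter, chr2:90934901-90946725, ran from -1.87 to 9.95 kb. Coverage was 86.7% in the DMSO list, 81% in the MM-401 list, 92.8% in the EtOH list and 88.2% in the 4OHT list, in 2, 8, 6 and 6 peaks. Its widest peaks were 9225 and 7775 bp in the MAF9 lists (DMSO, MM-401) and 9125 and 7500 bp in the flox lists (EtOH, 4OHT). At the DMSO promoter WDR5 peak the mark was called in all 4 lists, and the DMSO list alone had a break that began within this WDR5 peak and ended where its peak of 9225 bp, chr2:90937501-90946725 at rank 263 of 105136, started at 0.726 kb. The next long block, chr2:90946776-90954875, followed from 10 to 18.1 kb with 97.5%, 92.6%, 97.8% and 96.6% covered.

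The 3 remaining blocks called in every condition lay at lower coordinates. One of 4300 bp from -28.4 to -24.1 kb, over a WDR5 peak that the study annotated to the promoter of Slc39a13, a zinc transporter gene, was covered to 81.4%, 75%, 100% and 84.3%. Another of 4300 bp from -44.6 to -40.3 kb, over a WDR5 peak annotated to an exon of Psmc3, a proteasome subunit gene, was covered to 92.4%, 81.4%, 96.5% and 81.4%. The outermost, of 2625 bp from -55.1 to -52.5 kb, was covered to 72.4%, 66.7%, 100% and 84.8%. All 6 blocks thus had fewer bases called under MM-401 than in DMSO, and all 6 had fewer under 4OHT than in EtOH. Over the genome, among the 18978 blocks of at least 2000 bp called in all 4 conditions, 56% had fewer bases under MM-401 and 73.8% fewer under 4OHT. Neighboring blocks come from the same libraries and are not replicates of the treatment.

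**Figure D2:**
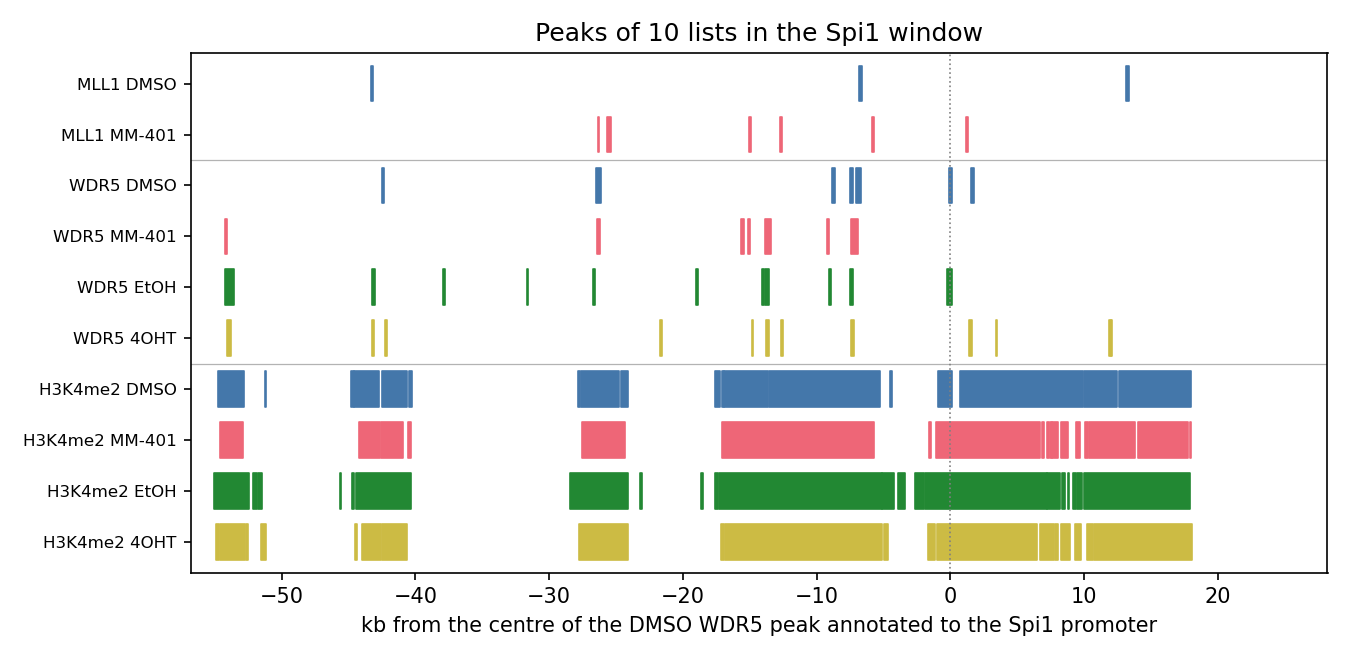
Peaks of the 10 lists in the Spi1 window (bars, 1 row per antibody and condition), in kb from the DMSO WDR5 peak annotated to the Spi1 promoter (dotted line). H3K4me2 forms the same long stretches in all 4 conditions, WDR5 recurs near -7.11 kb in all 4, and a promoter WDR5 peak is present in DMSO and EtOH.

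WDR5 peaks of the Spi1 window were narrow, from 75 to 650 bp wide, and numbered 7 in each MAF9 list, 11 in the EtOH list and 12 in the 4OHT list. The whole WDR5 lists also differed in size, with 14481, 17273, 34587 and 41054 peaks (DMSO, MM-401, EtOH, 4OHT). Peaks of the window that shared at least 1 bp between lists were joined to 24 sites, and 8 of these were called in more than 1 list. Among WDR5 sites of the whole lists, 16.5% were.

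The most constant WDR5 site was chr2:90929251-90930075, centered at -7.11 kb inside the longest H3K4me2 block, and it was called in all 4 lists. DMSO had 2 peaks there, of 175 and 325 bp, both annotated by the study as intergenic with Spi1 as the nearest gene. MM-401 had 1 peak of 575 bp, EtOH 1 of 250 bp and 4OHT 1 of 275 bp. The MM-401 peak was the widest WDR5 peak of the Spi1 window in that list and ranked 226 of 17273. It was the 1 site called in all 4 lists among the 46 WDR5 sites of the windows, near the genome share of 2.28%.

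At the Spi1 promoter WDR5 was called in both control lists and in neither treated list. The DMSO peak, chr2:90936651-90936900, was 250 bp wide and the EtOH peak, chr2:90936551-90936875, was 325 bp wide. The closest WDR5 peak to the DMSO one was 6751 bp off under MM-401 and 1251 bp off under 4OHT, although H3K4me2 was called over the site in all 4 lists. Sites called in DMSO and EtOH only, also seen in the Cebpa window, made up 1.14% of all WDR5 sites. The 4OHT peak just beyond, chr2:90938151-90938375, overlapped a DMSO peak of 275 bp annotated to an intron of Spi1, and there neither MM-401 nor EtOH had one. The promoter is thus a single position, and the site next to it showed a different pattern across the lists.

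Sites called in MM-401, EtOH and 4OHT but not in DMSO numbered 2 in the Spi1 window, a pattern of 0.869% of all WDR5 sites. The first, chr2:90922926-90923375 at -13.6 kb, was 450 bp wide under MM-401, 275 bp in EtOH and 225 bp under 4OHT. The nearest DMSO WDR5 peak was 4551 bp from the MM-401 one. The second, chr2:90882526-90883200 at -53.9 kb, was 150, 650 and 325 bp wide in the same order, and its EtOH peak was the widest WDR5 peak of the window.

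The 3 other recurrent Spi1 sites were each called in 2 lists. WDR5 at the Slc39a13 promoter, chr2:90910251-90910625, was called in DMSO at 375 bp and under MM-401 at 250 bp, and the EtOH list had a peak of 100 bp that lay 76 bp from the DMSO one. The site chr2:90893551-90893775 at -43.1 kb was called in EtOH and 4OHT, at 225 and 150 bp. The site chr2:90927551-90927825 at -9.09 kb was called under MM-401 and in EtOH, and a DMSO peak of 250 bp lay 101 bp from the EtOH one. Some sites missing from a list therefore had a peak within about a peak's width, which an overlap of 1 bp does not count.

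MLL1 was called at 3 Spi1 peaks in DMSO and at 6 under MM-401, and none was shared. The whole MLL1 lists held 8525 and 27345 peaks. The 2 lists differ in more than the treatment, because the DMSO list came from another peak caller than the other 9, so their counts and positions cannot be compared as an effect of MM-401. The DMSO peak chr2:90929987-90930210, 224 bp wide at -6.68 kb, overlapped the DMSO WDR5 peak of the constant site and lay 87 bp from the MM-401 WDR5 peak there. The other DMSO peaks were chr2:90893415-90893602 at -43.3 kb, which overlapped WDR5 in EtOH and under 4OHT but lay 649 bp from the nearest DMSO WDR5 peak, and chr2:90949956-90950144 at 13.3 kb, which was 11381 bp from DMSO WDR5. All 3 lay in H3K4me2 of every condition.

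Under MM-401 the widest MLL1 peak of the 3 windows was chr2:90911126-90911425, with 300 bp at rank 279 of 27345, beside the Slc39a13 site. A 100 bp peak, chr2:90910426-90910525, lay within the WDR5 peak of that site, and chr2:90921726-90921850 at -15 kb overlapped an MM-401 WDR5 peak of 175 bp. The longest H3K4me2 block held the last of these and chr2:90924076-90924175 and chr2:90930926-90931050, the latter 716 bp from the MLL1 peak called in DMSO at -6.68 kb. The sixth, chr2:90937926-90938100 at 1.24 kb, was 175 bp wide and lay 201 bp from the DMSO WDR5 peak in the Spi1 intron. All 6 lay in H3K4me2 of every condition.

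In the Cebpa window the mark was concentrated in a promoter block and a distal block. The whole H3K4me2 lists held 105136, 92025, 100898 and 91305 peaks (DMSO, MM-401, EtOH, 4OHT). The DMSO list held 20 of its peaks in the Cebpa window, the MM-401 list 8, the EtOH list 12 and the 4OHT list 19. Despite this spread in number, the covered length was similar, at 24.3, 22.1, 25 and 25.7 kb, or 30.4%, 27.6%, 31.3% and 32.1% of the window. Of 17 merged blocks, 7 were called in all 4 conditions and measured 500 to 12775 bp, and the other 10 were at most 525 bp long. The difference in number came from short blocks and from breaks within long ones.

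The promoter block, chr7:35901676-35914450, ran from -1.92 to 10.8 kb around the DMSO WDR5 peak annotated to the Cebpa promoter. It was covered to 86.5% by the DMSO list, 85.7% by the MM-401 list, 99.8% by the EtOH list and 94.7% by the 4OHT list. EtOH called most of it as 1 peak of 12575 bp, chr7:35901676-35914250, at rank 284 of 100898. DMSO called 6 peaks there with widths up to 4750 bp, MM-401 called 2 of 6750 and 4200 bp, and 4OHT called 4 with widths up to 5725 bp. Both MAF9 lists covered less of the block than both flox cell lists.

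The distal block, chr7:35935326-35943750, ran from 31.7 to 40.1 kb and includes the distance of 37 kb at which the window's rule places the Cebpa enhancer. This enhancer is known to drive Cebpa in blood progenitors. DMSO called a peak of 7625 bp, MM-401 one of 7900 bp, EtOH one of 8425 bp and 4OHT one of 8275 bp. With a small DMSO peak beside the first, they covered 93.2%, 93.8%, 100% and 98.2% of the block, and their ranks by width were 488, 453, 877 and 512. The bases called, 7850 in DMSO and 7900 under MM-401, and 8425 in EtOH and 8275 under 4OHT, thus stayed close between each treatment and its control.

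The 5 other Cebpa blocks called in every condition were 500 to 1850 bp long, and most of them varied more. Coverage of chr7:35953651-35954950, from 50.1 to 51.3 kb, was 100% in the DMSO list, 48.1% with MM-401, 55.8% in the EtOH list and 57.7% with 4OHT. Coverage of chr7:35924476-35925450, near 21 kb, was 53.8%, 89.7%, 71.8% and 89.7%. Here the DMSO list was at the extreme in both cases, at the top of the first block and at the bottom of the second. In the same order, chr7:35956426-35956925 was covered to 100%, 40%, 15% and 30%. Coverage was 76.2%, 90.5%, 90.5% and 81% at chr7:35957101-35957625, and 85.1%, 56.8%, 79.7% and 87.8% at chr7:35951676-35953525. Across the 7 blocks, 4 had fewer bases under MM-401 than in DMSO and 3 had fewer under 4OHT than in EtOH. Over all 41738 blocks called in 4 conditions, 55.1% and 63.9% had fewer.

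**Figure D3:**
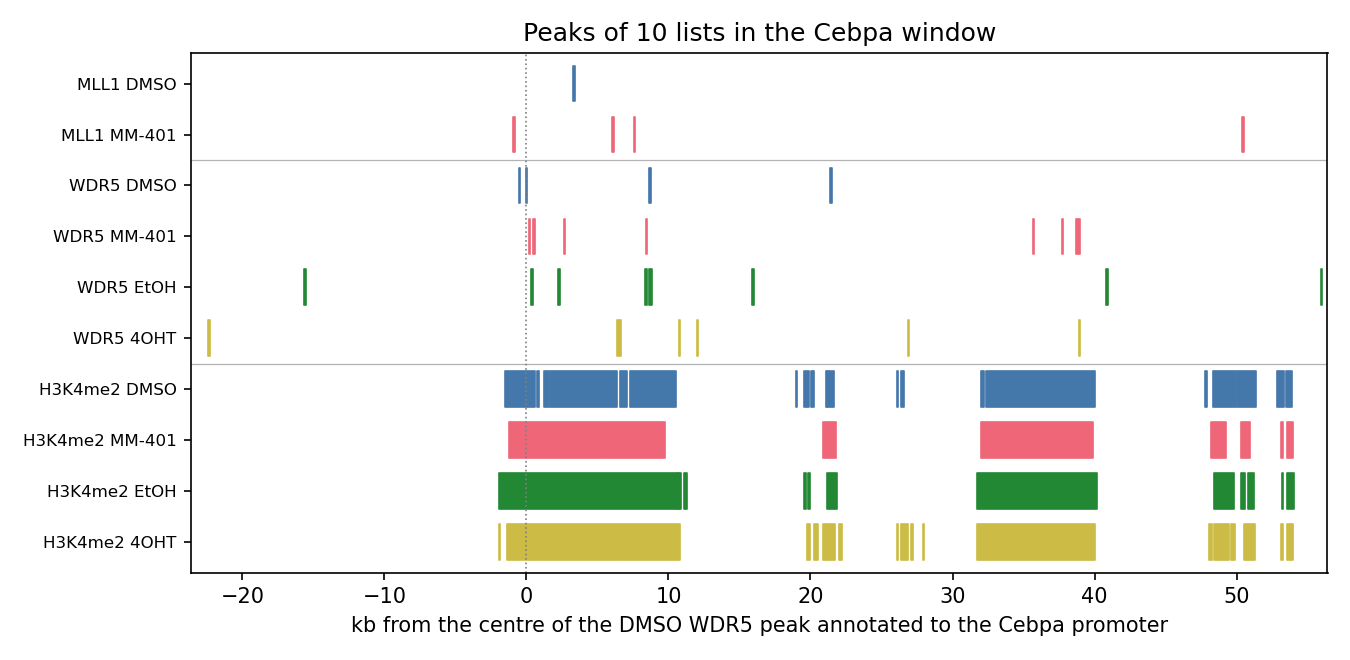
Peaks of the 10 lists in the Cebpa window (bars, 1 row per antibody and condition), in kb from the DMSO WDR5 peak annotated to the Cebpa promoter (dotted line). The H3K4me2 blocks from -1.92 to 10.8 kb and from 31.7 to 40.1 kb are called in all 4 conditions, and WDR5 peaks in the distal block appear under MM-401 and 4OHT.

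The Cebpa window held 4 WDR5 peaks in the DMSO list, 7 in the MM-401 list, 8 in the EtOH list and 6 in the 4OHT list, all 75 to 300 bp wide. In the same order the whole lists held 14481, 17273, 34587 and 41054 peaks. The Cebpa peaks made 22 sites, of which 3 were called in more than 1 list and none in more than 2. Over the whole lists 16.5% of WDR5 sites were called in more than 1 list. Around the promoter the lists with WDR5 placed it at close positions that shared no base. DMSO had a 100 bp peak at chr7:35903551-35903650, MM-401 peaks of 75 and 175 bp began 101 and 401 bp from it, and an EtOH peak of 150 bp lay 251 bp from it. The EtOH peak ended at 35904050 and the wider MM-401 peak began at 35904051, so these adjoined and just missed counting as a shared site. The 4OHT list had no WDR5 peak nearer than 6326 bp, although its H3K4me2 covered the site.

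In the distal Cebpa block WDR5 was called in both treated lists and in neither control list. MM-401 had 3 peaks, at 35.7, 37.7 and 38.8 kb, of 75, 125 and 275 bp. 4OHT had 1 peak of 75 bp, which overlapped the widest MM-401 one at chr7:35942276-35942550. The nearest EtOH WDR5 peak was 1851 bp away, just outside the block, and the nearest DMSO peak was 17151 bp away. Sites called under MM-401 and 4OHT and in no other list made up 1.02% of all WDR5 sites. At the Spi1 promoter the pattern was the opposite, with both controls called and both treated lists empty. The Cebpa site chr7:35912201-35912450 at 8.72 kb was also called in both controls and in neither treated list. The 2 patterns therefore do not separate the loci. In each case the statement rests on 1 site and 1 library per condition.

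The 2 other recurrent Cebpa sites lay close together in the promoter block. The site chr7:35911951-35912075 at 8.41 kb was called under MM-401 and in EtOH, at 75 and 125 bp. The site chr7:35912201-35912450 at 8.72 kb was called in DMSO and EtOH, at 150 and 200 bp. The MM-401 peak of the first and the DMSO peak of the second were 126 bp apart, so all 3 lists had WDR5 within this stretch, and the nearest 4OHT peak was 1676 bp from the EtOH peak of the first site.

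MLL1 at Cebpa was called at 1 peak in DMSO and 4 under MM-401, again without overlap, from whole lists of 8525 and 27345 peaks. The DMSO peak, chr7:35906900-35907015, was 116 bp wide, narrower than 97.8% of its list, and lay at 3.36 kb in the promoter block. Of the MM-401 peaks, chr7:35902676-35902825, chr7:35909651-35909800 and chr7:35911151-35911250 lay in the same block, at -0.85, 6.12 and 7.6 kb. The last, chr7:35954001-35954100 at 50.5 kb, lay in H3K4me2 of DMSO, MM-401 and EtOH and 51 bp outside it under 4OHT. None of the 5 overlapped a WDR5 peak, and neither MLL1 list had a peak in the distal block.

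Counted over the windows together, H3K4me2 peaks were overlapped in their treatment partner at shares whose counting intervals held the whole-list value in 3 of 4 directions, and at a higher share from MM-401 to DMSO. In MAF9 cells MM-401 peaks overlapped 27 of 38 DMSO peaks, or 71.1% (95% Wilson interval 55.2% to 83%), against 69.5% over the whole list, and 25 of 26 MM-401 peaks had a DMSO peak over them, or 96.2% (81.1% to 99.3%), against 80.1%. In the flox cells 23 of 33 EtOH peaks were overlapped under 4OHT, or 69.7% (52.7% to 82.6%), against 62.8%, and 31 of 38 4OHT peaks had an EtOH peak over them, or 81.6% (66.6% to 90.8%), against 78.8%. Between the controls, 31 of 38 DMSO peaks were overlapped in EtOH, or 81.6% (66.6% to 90.8%), against 69.4%, and 24 of 33 EtOH peaks in DMSO, or 72.7% (55.8% to 84.9%), against 65.7%. The whole-list values lay inside these intervals except that of 80.1% for MM-401 peaks in DMSO, which was below its interval. The whole lists were not matched for peak width. Of the 26 MM-401 peaks, 8 were at least 2000 bp wide, against 13489 of 92025 in the whole list. All peaks of that width were overlapped in DMSO, in the windows and over the genome. The part of width in the higher share was not tested. The intervals treat neighboring peaks as independent and cover counting error only.

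What was not overlapped was short. The DMSO peaks absent under MM-401 were at most 350 bp wide, with chr2:90919176-90919525 in the Spi1 window and chr7:35923176-35923525 in the Cebpa window at that width. The widest EtOH peaks absent under 4OHT were chr2:90934176-90934800, of 625 bp, and chr7:35914726-35914925, of 200 bp. In the opposite direction the single MM-401 peak absent in DMSO was chr2:90935226-90935375, of 150 bp, and among 4OHT peaks without an EtOH partner the widest was chr7:35929976-35930475, of 500 bp. MM-401 at Cebpa and 4OHT at Spi1 had no such peak. Every H3K4me2 peak of at least 2000 bp in the windows, 10 in DMSO and 8 in each other list, was overlapped in its treatment partner and between the controls. Over the genome, 99.8% of such DMSO peaks were overlapped in EtOH, 99.9% of EtOH peaks in DMSO, and 100% (rounded) in each comparison of a treatment with its control.

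Measured in bases, called H3K4me2 at Spi1 decreased by 7.97% from DMSO to MM-401 and decreased by 11.5% from EtOH to 4OHT. Over the whole lists it decreased by 6.54% and decreased by 9.52%. At Cebpa it decreased by 9.25% under MM-401, while under 4OHT it rose from 25 to 25.7 kb, by 2.7%. Of the control bases, the treated lists still covered 88.4% at Spi1 and 83.8% at Cebpa under MM-401, and 86.1% and 93.4% under 4OHT, against 81.4% and 80.8% over the whole lists. H3K4me2 in both windows was hence largely called at the same bases after each treatment.

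**Figure D4:**
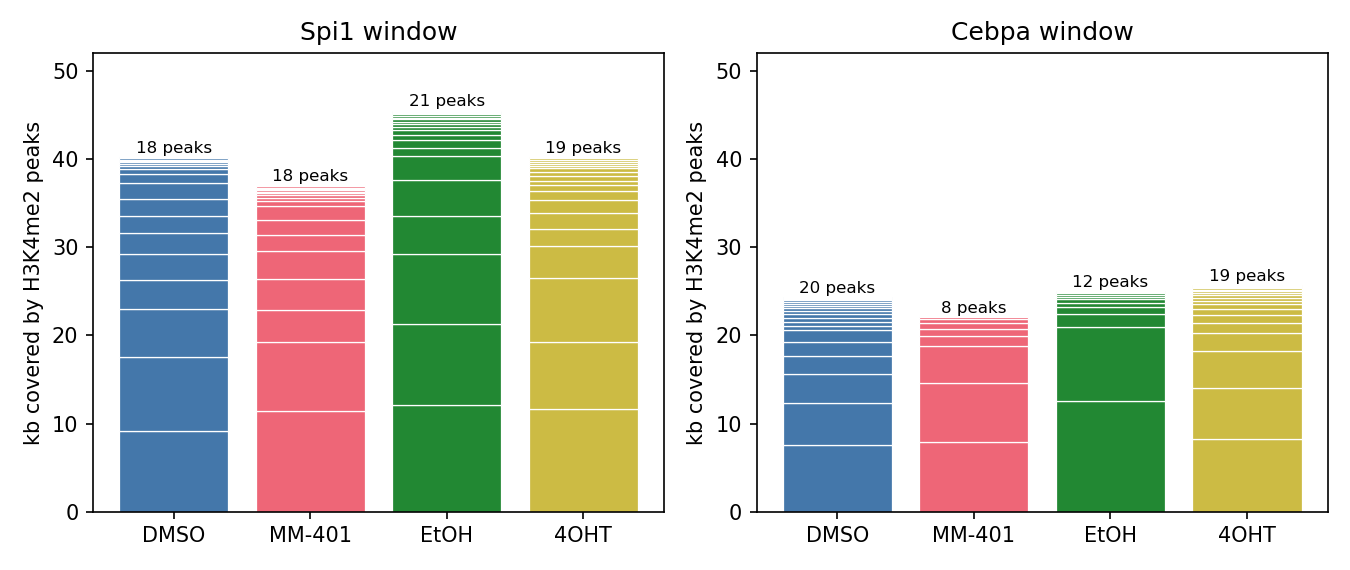
Length covered by H3K4me2 peaks, in kb, in the Spi1 and Cebpa windows by condition, with each bar divided into its peaks from widest to narrowest and 1 library per bar. Covered length runs from 37 to 45.5 kb at Spi1 and from 22.1 to 25.7 kb at Cebpa, while the number of Cebpa peaks runs from 8 to 20.

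**Figure D5:**
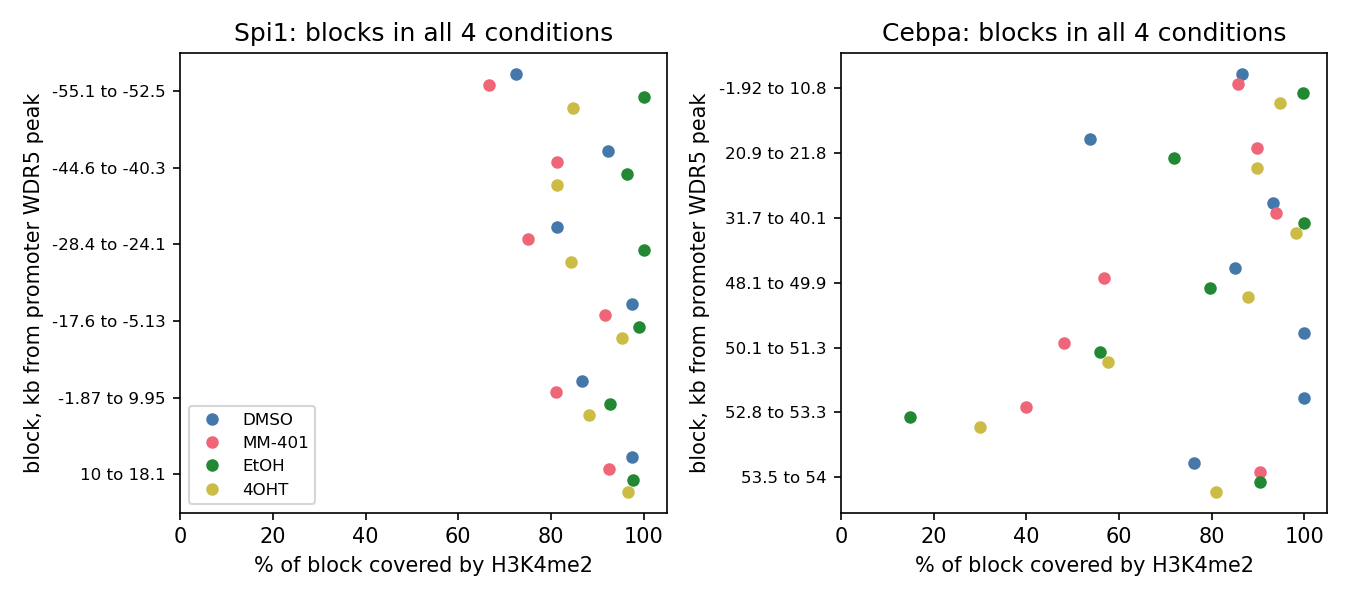
Share of each H3K4me2 block covered in each condition (points, in percent of the block's length), for the blocks called in all 4 conditions at Spi1 (6) and Cebpa (7), labelled by their position in kb from the promoter WDR5 peak. At Spi1 the MM-401 point lies left of the DMSO point and the 4OHT point left of the EtOH point in every block, and at Cebpa the order varies.

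WDR5 peaks matched less often than H3K4me2 peaks did, in the windows as over the whole lists. WDR5 peaks of the windows were 75 to 650 bp wide, while H3K4me2 peaks reached 12575 bp. Wide peaks meet an overlap of 1 bp more easily, and the part of width in this gap was not tested. The MM-401 list overlapped 3 of 11 DMSO WDR5 peaks, or 27.3% (9.75% to 56.6%), against 40.1% over the whole list, and all 3 were at Spi1. In reverse it was 2 of 14 MM-401 peaks, or 14.3% (4.01% to 39.9%), against 34.2%. The 4OHT list overlapped 4 of 19 EtOH peaks, or 21.1% (8.51% to 43.3%), against 18.5%, again all at Spi1, and in reverse it was 4 of 18, or 22.2% (9% to 45.2%), against 15.6%. Between DMSO and EtOH 3 of 11 were overlapped, 2 at Spi1 and 1 at Cebpa, or 27.3%, against 34.5%, and in reverse 3 of 19, or 15.8%, against 14.7%. At Cebpa no WDR5 peak overlapped between a treated list and its control, 0 of 4 from DMSO (0% to 49%) and 0 of 8 from EtOH (0% to 32.4%). The backgrounds of 40.1% and 18.5% lay within those intervals too, so with so few peaks the windows cannot be told from the rest. For MLL1, the Runx1 peak was left out because the MM-401 list ends before it, and no MM-401 peak overlapped any of the 3 DMSO peaks at Spi1 (0% to 56.1%) or the 1 at Cebpa (0% to 79.3%), against 5.3%, and 0 of 10 MM-401 peaks in DMSO, against 1.7%.

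Many positions that missed an overlap had a peak of the partner list nearby. When a gap of up to 2 kb was allowed, 36 of 38 DMSO H3K4me2 peaks had an MM-401 partner, against 90.3% over the whole list. So did all 33 EtOH peaks with 4OHT, against 93.9%, and 36 of 38 DMSO peaks with EtOH, against 85.7%. For WDR5, 7 of 11 DMSO peaks then had an MM-401 partner, against 63.2%, and 10 of 19 EtOH peaks a 4OHT partner, against 42.5%. Between the control lists 10 of 11 DMSO WDR5 peaks had an EtOH peak within that gap, against 62.9%. For MLL1 it was 1 of the 4 DMSO peaks outside Runx1 with MM-401, against 24.3%.

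WDR5 and MLL1 peaks of both loci lay mainly in H3K4me2. All 11 DMSO and all 14 MM-401 WDR5 peaks overlapped H3K4me2 of their own condition, against 88.7% and 87.7% over the whole lists. In the flox cells 12 of 19 EtOH peaks did, or 63.2% (41% to 80.9%), against 54.3%, and 15 of 18 4OHT peaks did, or 83.3% (60.8% to 94.2%), against 47.1%. The WDR5 peaks outside the mark were 100 to 175 bp wide. All 4 DMSO MLL1 peaks outside Runx1 and all 10 MM-401 MLL1 peaks lay in H3K4me2, against 51.6% and 42.4%. These shares stand beside windows of which H3K4me2 covered 27.6% to 53.5%, and the part of that density in them was not tested. Outside Runx1, MLL1 and WDR5 peaks coincided at 1 of 4 MLL1 peaks in DMSO, or 25% (4.56% to 69.9%), and 2 of 10 under MM-401, or 20% (5.67% to 51%), all in the Spi1 window, against 5.56% and 3.73%. The DMSO MLL1 whole-list shares of 51.6% and 5.56% keep the peaks past the ends of the other lists. On chromosome 16 these were 45, and none could overlap.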

How the data were processed

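ChIP-seq peak lists of 10 libraries (1 per condition and antibody) were analyzed; 4 inputs were not analysed here. The deposited values are other than counts or signal: the authors deposited chromosome, start and end of each peak, with 1 list per library. The submitters' processing notes name Bowtie and mm9. In 9 lists the peaks carry HPeak names on a 25 bp grid and were read as 1-based. The DMSO MLL1 list has neither, the study describes MACS for it, and its starts were read as 0-based. Depth per library is unknown. Caller thresholds of the HPeak lists are not given in the sources used here.

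Peaks touching a window were kept whole. Overlap meant at least 1 bp shared. Sites and blocks are unions of overlapping peaks of 1 antibody. Percentages over whole lists give the background, and shares carry 95% Wilson intervals, with no test. The backgrounds of the DMSO MLL1 list keep its peaks past the ends of the other lists, although the Runx1 peak was left out of the window shares. Gaps between peaks are differences of end and start positions. Gene categories of DMSO WDR5 peaks come from the study's supplementary annotation, matched by exact position. Named by position were every MLL1 peak, WDR5 sites called in at least 2 lists and WDR5 peaks over 300 bp, H3K4me2 peaks of at least 2000 bp (given by block), and the widest H3K4me2 peaks without overlap in the treatment partner. WDR5 peaks at the Cebpa promoter and in the distal Cebpa block were named after their values were seen. Cebpa H3K4me2 blocks under 2000 bp called in all 4 conditions were named outside this rule. Members and lists were chosen with earlier results of these data known. Alternatives were peaks up to 2 kb apart, 50% of the peak covered, the widest 50% of each list, lists of equal length, windows extended by 20 kb, peaks wholly inside a window, and DMSO MLL1 starts read as 1-based. Joining blocks up to 500 bp apart was chosen after seeing the data. Python 3.11.15, numpy 2.4.6, scipy 1.17.1 and matplotlib 3.10.9 were used, and the overlap code, tested on simulated data, called 100% of peaks correctly with the counts of bedtools 2.31.1.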

Additional observations from a re-analysis of the deposited data

Results flagged for a closer look

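At Spi1 and Cebpa, 8 summary values moved in opposite directions under MM-401 (against DMSO) and 4OHT (against EtOH). The other values compared did not. At Spi1, the number of H3K4me2 peaks changed by -2 under 4OHT and 0 under MM-401, and their covered length by -5250 and -3200 bp. The number of Spi1 WDR5 peaks changed by 1 and 0, and the widest Cebpa WDR5 peak by 100 and 125 bp. Number, covered length and widest peak describe the same peaks. None of these differences was tested, since each condition has 1 library per antibody. For H3K4me2, the widest Spi1 peak changed by -450 bp under 4OHT and by 2200 bp under MM-401, and the widest Cebpa peak by -4300 bp and 275 bp. The number of Cebpa H3K4me2 peaks changed by 7 under 4OHT and by -12 under MM-401, and their covered length by 675 bp and -2250 bp. In the whole lists the number of H3K4me2 peaks fell from 100898 to 91305 under 4OHT and from 105136 to 92025 under MM-401. For WDR5 at Spi1, the covered length changed by -550 bp under 4OHT and by 200 bp under MM-401, and the widest peak by -325 bp and 200 bp. For WDR5 at Cebpa, the number of peaks changed by -2 under 4OHT and by 3 under MM-401, and their covered length by -300 bp and 425 bp. Over the whole lists WDR5 covered length rose by 15.2% under 4OHT and by 5.06% under MM-401. At Spi1 it changed by -22.4% and 11.1%, and at Cebpa by -26.1% and 94.4%. In the whole lists the number of WDR5 peaks rose from 34587 to 41054 and from 14481 to 17273.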

How the results depend on the processing

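Of 109 alternative values of the main results, 88 stayed within their counting interval or within 1.5 times the count and 21 moved. Some of the 88 could not move. Peaks wholly inside a window gave the same value in every case, and shares of 100% could not rise with a wider gap. The tally is therefore no measure of robustness. Its DMSO MLL1 values keep the Runx1 peak. When a gap of up to 2 kb counted as shared, H3K4me2 overlap rose to 94.7% for MM-401 and DMSO, 100% for 4OHT and EtOH, and 94.7% for the 2 controls, against whole-list values of 90.3%, 93.9% and 85.7%. WDR5 overlap rose to 63.6%, 52.6% and 90.9%, against 63.2%, 42.5% and 62.9%. MM-401 MLL1 peaks with WDR5 rose to 70%, for which no whole-list share at this gap is at hand, so it cannot be set against the genome. The WDR5 sites merged to 20, and 1 MLL1 site was in both lists. With 50% of a peak covered, DMSO MLL1 peaks with WDR5 fell to 0. The widest 50% of each list, which holds fewer peaks by construction, gave H3K4me2 overlaps of 95% for DMSO peaks both under MM-401 and in EtOH. A whole-list share at this setting is not at hand either. It left 6 MM-401 MLL1 peaks, 5, 8, 11 and 8 WDR5 peaks and 20, 16, 17 and 22 H3K4me2 peaks (DMSO, MM-401, EtOH, 4OHT). With blocks up to 500 bp apart merged, a setting chosen after seeing the data, both windows held 8. No paired analysis was possible because each condition has 1 library per antibody. A planned list of other myeloid factor genes was not run, as it needs gene positions in mm9. Depth is unknown for every list, so peaks missing from a list cannot be told from peaks under its threshold.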
